A study of Mus musculus with 12 samples.

Results

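The genes described here are 35 listed mouse genes of the hypoxia response and of glycolysis: subunits of the hypoxia-inducible factors (HIF), the prolyl hydroxylases that control them, well-known HIF targets, and the enzymes and transporters that carry glucose to lactate. They were found on the array as probe sets whose platform annotation names exactly 1 gene and that gene is on the list. Of the 35 genes, 32 had such a probe set (71 probe sets, 68 of them past the filter on low signal), and all 32 were among the 14322 genes tested. Gpi1 and Eno1 are not analysed here, and Bnip3l was left out because its 3 probe sets are shared with a second gene name.

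The data are from 12 Affymetrix arrays, each on total RNA of kidney from 1 male mouse aged 8 weeks, with 3 mice in each of 4 groups. WT mice were C57BL/10 and TLR4 null mice (TLR4-/-) were C57BL/10ScNJ, a related strain that lacks a working Toll-like receptor 4, so that the genotype comparison is also one between substrains. All 12 mice lost the right kidney under isoflurane at 37 °C. In ischemic mice the left renal pedicle was clipped for 23 min, in sham mice the clip was only laid under it, and left kidneys were taken 4 h after the clip was released. The ischemic kidneys had therefore had blood flow again for 4 h when they were taken, and the sham kidneys also come from nephrectomised, anaesthetised mice.

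HIF is a transcription factor of 1 oxygen-labile alpha subunit (HIF-1 alpha from Hif1a, HIF-2 alpha from Epas1) and the stable beta subunit ARNT. With oxygen present, prolyl hydroxylases of the Egln family mark the alpha subunit, and the von Hippel-Lindau protein sends it to the proteasome. When oxygen falls the alpha subunit lasts, and HIF raises genes for glucose uptake, glycolysis, blood vessel growth and mitochondrial clearance. In the kidney, proximal tubule cells normally burn fatty acids and make glucose rather than break it down, HIF-1 alpha is mostly found in tubule cells, and HIF-2 alpha in endothelial and interstitial cells. The arrays measure RNA and say nothing of the HIF protein itself.

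HIF binds a short core that is spelled ACGTG or GCGTG. The 250 bases before the RefSeq start of transcription were read for the members on build GRCm38.p6 (46 windows for 32 of the 35 genes, some genes having several starts), on both strands. The first-listed windows of 7 genes are shown, in gene orientation with the cores in capitals. The genes are the largest rises (Adm, Hk2, Slc2a1) and the largest falls with a window (Pdk1, Mxi1, Egln3) among genes whose ischemic and sham kidneys did not overlap. Ldha was picked after its values were seen, as a member that was not called. On the opposite strand the cores read CACGT and CACGC.
Adm, chr7:110627407-110627656, plus strand: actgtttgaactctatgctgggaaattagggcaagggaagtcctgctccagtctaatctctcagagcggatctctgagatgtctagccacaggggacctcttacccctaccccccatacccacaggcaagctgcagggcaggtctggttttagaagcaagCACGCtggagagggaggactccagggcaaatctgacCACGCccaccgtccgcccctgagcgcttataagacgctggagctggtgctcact
Hk2, chr6:82774455-82774704, minus strand: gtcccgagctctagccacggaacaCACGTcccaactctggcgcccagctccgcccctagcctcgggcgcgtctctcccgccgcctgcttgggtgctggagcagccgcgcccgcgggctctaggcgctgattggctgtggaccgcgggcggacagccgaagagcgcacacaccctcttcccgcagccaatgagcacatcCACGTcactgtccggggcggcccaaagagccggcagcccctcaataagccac
Slc2a1, chr4:119108495-119108744, plus strand: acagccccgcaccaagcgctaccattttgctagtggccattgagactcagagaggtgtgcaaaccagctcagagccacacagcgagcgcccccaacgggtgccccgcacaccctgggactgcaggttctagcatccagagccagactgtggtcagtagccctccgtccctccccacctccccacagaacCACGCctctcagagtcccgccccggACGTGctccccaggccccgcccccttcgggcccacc
Pdk1, chr2:71872974-71873223, plus strand: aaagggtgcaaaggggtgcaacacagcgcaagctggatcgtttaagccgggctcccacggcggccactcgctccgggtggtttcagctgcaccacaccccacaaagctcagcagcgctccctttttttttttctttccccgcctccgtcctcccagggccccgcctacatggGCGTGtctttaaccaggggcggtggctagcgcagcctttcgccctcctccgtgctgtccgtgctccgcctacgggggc
Mxi1, chr19:53310256-53310505, plus strand: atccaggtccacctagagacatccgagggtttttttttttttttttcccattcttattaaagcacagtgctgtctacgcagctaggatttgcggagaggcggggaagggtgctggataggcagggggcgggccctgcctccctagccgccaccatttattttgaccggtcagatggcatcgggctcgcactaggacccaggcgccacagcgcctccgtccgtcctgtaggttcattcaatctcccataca
Egln3, chr12:54203875-54204124, minus strand: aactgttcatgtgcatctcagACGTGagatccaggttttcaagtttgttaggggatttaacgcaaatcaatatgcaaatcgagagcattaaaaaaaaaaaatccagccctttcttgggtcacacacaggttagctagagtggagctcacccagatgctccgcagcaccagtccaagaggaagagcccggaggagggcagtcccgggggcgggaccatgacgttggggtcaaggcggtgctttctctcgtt
Ldha, chr7:46845554-46845803, plus strand: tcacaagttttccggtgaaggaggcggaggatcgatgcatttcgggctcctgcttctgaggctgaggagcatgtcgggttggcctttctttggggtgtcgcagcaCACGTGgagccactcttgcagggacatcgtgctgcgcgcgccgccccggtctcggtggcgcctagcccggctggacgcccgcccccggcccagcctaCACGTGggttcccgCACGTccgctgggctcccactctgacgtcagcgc

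In these windows Ldha held 5 matches to ACGTG, 4 of them as 2 copies of the palindrome CACGTG, which reads ACGTG on both strands and counts on each. Hk2 held 2 matches to ACGTG, Slc2a1 1 of each core, Adm 2 matches to GCGTG, Pdk1 1 match to GCGTG and Egln3 1 match to ACGTG. The Mxi1 window shown held neither, which says only that these letters are not in it. Over all member windows 50% held ACGTG (23 of 46) and 78.3% held either core, against 16.6% and 38.6% of the 32851 mouse promoter windows of the same length. The member windows were also richer in G and C, with a median of 62.8% against 52.4%. Cores were found among members of every outcome in ischemic kidneys: at least 1 window held a core for 10 of 10 genes that rose, for 8 of 8 that fell and had a window, and for 11 of 12 that were not called. These are matches of letters and not binding sites.

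Signals are linear MAS5 intensities, which allow comparison of arrays for 1 gene but not of one gene with another. Fold changes are differences of log2(signal + 15), and a gene was called where its limma p, adjusted by Benjamini and Hochberg over 14322 genes, was under 0.05. The main comparison was ischemic minus sham, averaged over the 2 genotypes (6 kidneys against 6). In it 10 members were higher, 10 were lower and 12 were not called, against a background of 13.7% of all genes higher, 19.4% lower and 33.1% either. Under scaling to each array's median the split was 10 higher and 6 lower. The median change of the 32 members was 0.00 on the log2 scale, against -0.08 over all genes. For 12 of the 32 members the 6 ischemic and 6 sham signals did not overlap, against 17% of all genes. Fewer cells of a type and less RNA per cell cannot be told apart in RNA of a whole tissue.

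**Figure D1:**
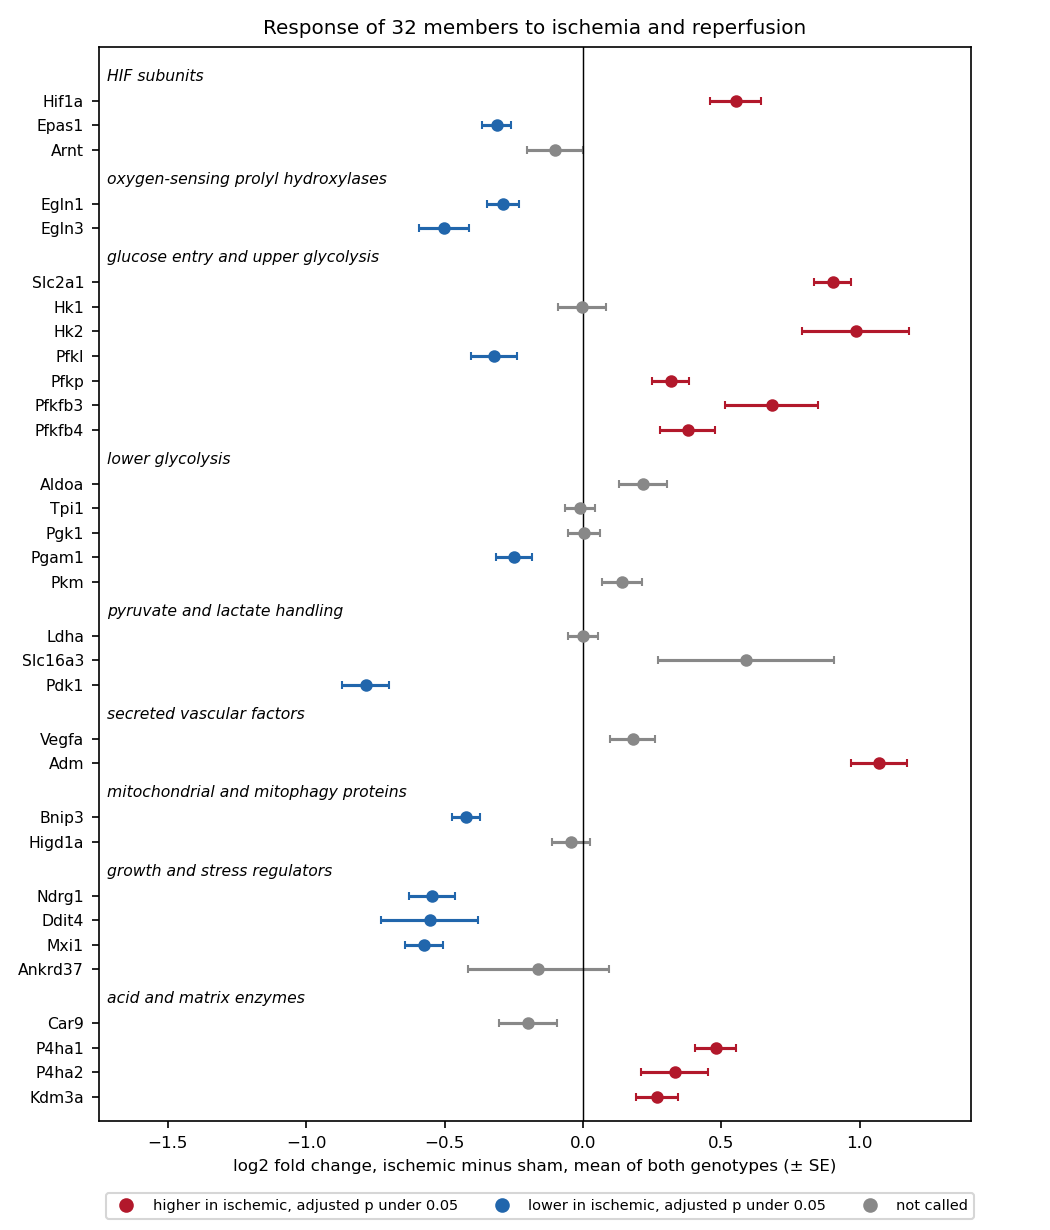
Log2 fold change (horizontal axis, ischemic minus sham, mean of both genotypes, bars ± SE) of the 32 members, in rows grouped by role. Red points rose (10), blue points fell (10) and grey points were not called (12): red points gather in glucose entry and upper glycolysis, while the lower glycolysis rows lie near 0 and the growth and stress regulators lie left of it.

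The alpha subunits of HIF moved in opposite directions. Hif1a had signals of 1958, 1909.7 and 2748 in WT ischemic kidneys, against 1534, 1530.3 and 1353 in WT sham kidneys, and of 1765, 2078 and 1589 in TLR4 null ischemic kidneys, against 1186, 1283 and 1227 in TLR4 null sham kidneys. Every ischemic kidney was above every sham kidney, and Hif1a rose 1.47-fold (log2 0.55 ± 0.09 (SE), adjusted p = 0.000255). All 3 of its probe sets that passed the filter, of 4 on the array, rose, by 0.30 to 0.60, in a fit of all 30326 probe sets in which 27.3% were called in either direction. Epas1 had signals of 2787, 2686 and 2762 in WT ischemic kidneys, against 2918, 3244 and 3358 in WT sham kidneys, and of 2342, 2464 and 2463 in TLR4 null ischemic kidneys, against 3162, 3378 and 3186 in TLR4 null sham kidneys. Every ischemic kidney was below every sham kidney, and Epas1 fell to 0.806 of its sham level (log2 -0.31 ± 0.05 (SE), adjusted p = 0.000282). Its second probe set was not called, at -0.19. Arnt, the shared beta subunit, was not called (-0.10 ± 0.10 (SE), adjusted p = 0.492), and its 4 probe sets past the filter, of 5, gave -0.26 to 0.30.

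Epas1 RNA is abundant in endothelium, and endothelial markers were lower in ischemic kidneys too. Against 19.4% of all genes lower, 7 of 10 such markers fell, led by Tek (-1.17), Plvap (-0.76) and Tie1 (-0.70). Pecam1 (0.01) and Cdh5 (0.29) were not called. The summed signal of the 10 markers was 4134 to 5364 in WT ischemic and 5674 to 7010 in WT sham kidneys, and 3267 to 3686 in TLR4 null ischemic and 4910 to 5195 in TLR4 null sham kidneys (exact permutation p = 0.00866, two-sided, 0.0606 after adjustment over 14 measures). The part of these cells in the change of Epas1 was not tested.

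Both member genes for prolyl hydroxylases, which mark HIF alpha for destruction, were lower on the probe set used for each, while Egln2 (PHD1), outside the list of members, was not called (0.05 ± 0.08 (SE), adjusted p = 0.651). Egln3 (PHD3), itself a HIF target in many cells, fell to 0.706 of its sham level (log2 -0.50 ± 0.09 (SE), adjusted p = 0.000513). Egln3 had signals of 215, 263 and 259 in WT ischemic kidneys, against 356, 314 and 361 in WT sham kidneys, and of 219, 227 and 255 in TLR4 null ischemic kidneys, against 367, 299 and 379.7 in TLR4 null sham kidneys. All 6 ischemic signals lay below all 6 sham signals. Egln1 (PHD2), the main oxygen sensor, fell less (log2 -0.29 ± 0.06 (SE), adjusted p = 0.00129), with no overlap within either genotype and an offset between the genotypes described below. Neither fall was seen in every probe set: the second of Egln1 gave -0.14 and the second of Egln3 -0.29, neither called. That Egln3 value averages 0.17 in WT and -0.76 in TLR4 null kidneys, neither called. Egln1 was not called under median scaling (adjusted p = 0.0866).

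Members at the entry to glycolysis mostly rose. Of 7 tested genes for glucose entry and upper glycolysis 5 were higher, 1 was lower and 1 was not called, with a median change of 0.38. The background was 13.7% of all genes higher and 19.4% lower. Slc2a1 (GLUT1), the glucose transporter that HIF raises in most cells, rose 1.87-fold (log2 0.90 ± 0.07 (SE), adjusted p = 8.88e-08). Slc2a1 had signals of 1378, 1655 and 1559.7 in WT ischemic kidneys, against 835, 965 and 873 in WT sham kidneys, and of 1282, 1379 and 1473 in TLR4 null ischemic kidneys, against 639, 706 and 647 in TLR4 null sham kidneys. The lowest ischemic kidney was well above the highest sham kidney, and all 3 probe sets rose, by 0.86 to 0.94. Hk2, the inducible hexokinase that traps glucose in the cell, rose 1.98-fold (log2 0.98 ± 0.19 (SE), adjusted p = 0.00102). Hk2 had signals of 293, 181 and 393 in WT ischemic kidneys, against 109, 108 and 174 in WT sham kidneys, and of 269, 175 and 177 in TLR4 null ischemic kidneys, against 117, 68.7 and 119 in TLR4 null sham kidneys. Hk2 varied more between mice than Slc2a1, and the gap between the lowest ischemic and the highest sham signal was small. Hk1, the constitutive hexokinase, was not called (0.00 ± 0.09 (SE), adjusted p = 0.98).

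Pfkfb3 and Pfkfb4 make fructose 2,6-bisphosphate, the strongest activator of phosphofructokinase, and both were called higher on the probe set used. Pfkfb2, a related enzyme outside the list of members, was not called (-0.22 ± 0.13 (SE), adjusted p = 0.24). Pfkfb4 had signals of 248, 313 and 254 in WT ischemic kidneys, against 197, 202 and 230.4 in WT sham kidneys, and of 278, 233 and 317 in TLR4 null ischemic kidneys, against 204, 186 and 219.7 in TLR4 null sham kidneys. Its ischemic and sham signals did not overlap (log2 0.38 ± 0.10 (SE), adjusted p = 0.00818). Pfkfb3 rose 1.6-fold on the probe set used (log2 0.68 ± 0.17 (SE), adjusted p = 0.00533), but 1 WT sham kidney reached the ischemic range. Pfkfb3 had signals of 184, 210.5 and 199 in WT ischemic kidneys, against 88.6, 189 and 141 in WT sham kidneys, and of 250.2, 170.5 and 155 in TLR4 null ischemic kidneys, against 110.4, 112 and 74.3 in TLR4 null sham kidneys. Its second probe set gave -0.09, and with the mean of both probe sets Pfkfb3 was not called (0.30, adjusted p = 0.124). Phosphofructokinase itself changed by isoform: Pfkp rose (log2 0.32 ± 0.07 (SE), adjusted p = 0.00193) and Pfkl fell (log2 -0.32 ± 0.08 (SE), adjusted p = 0.00711). Pfkp had mean signals of 706 ± 62.5 in WT ischemic and 618 ± 43.3 in WT sham kidneys, and 726 ± 39 in TLR4 null ischemic and 529 ± 12.3 in TLR4 null sham kidneys (SD, n = 3 each). Pfkl had 327 ± 12.3 in WT ischemic and 465 ± 65.2 in WT sham kidneys, and 367 ± 26.7 in TLR4 null ischemic and 414 ± 39.5 in TLR4 null sham kidneys (SD, n = 3 each). Only 1 of 3 Pfkp probe sets and 2 of 3 Pfkl probe sets were called, and Pfkl was not called under median scaling (adjusted p = 0.0846).

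The summed signal of 7 neutrophil markers was higher in ischemic kidneys, at 1057 to 1575 in WT ischemic and 640.0 to 728.5 in WT sham kidneys, and 687.7 to 932.3 in TLR4 null ischemic and 434.8 to 690.5 in TLR4 null sham kidneys (exact permutation p = 0.00649, two-sided, adjusted p = 0.0606 over 14 measures). Of the 7 markers 2 were called, against 33.1% of all genes called in either direction. These were S100a9 (1.30) and S100a8 (1.21), both higher. The median over the 7 was -0.01, and Elane (-0.34) and Mpo (-0.22) were not called. Neutrophils are glycolytic cells that carry Hif1a and Slc2a1 RNA, and their part in the rises of those genes was not tested.

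**Figure D2:**
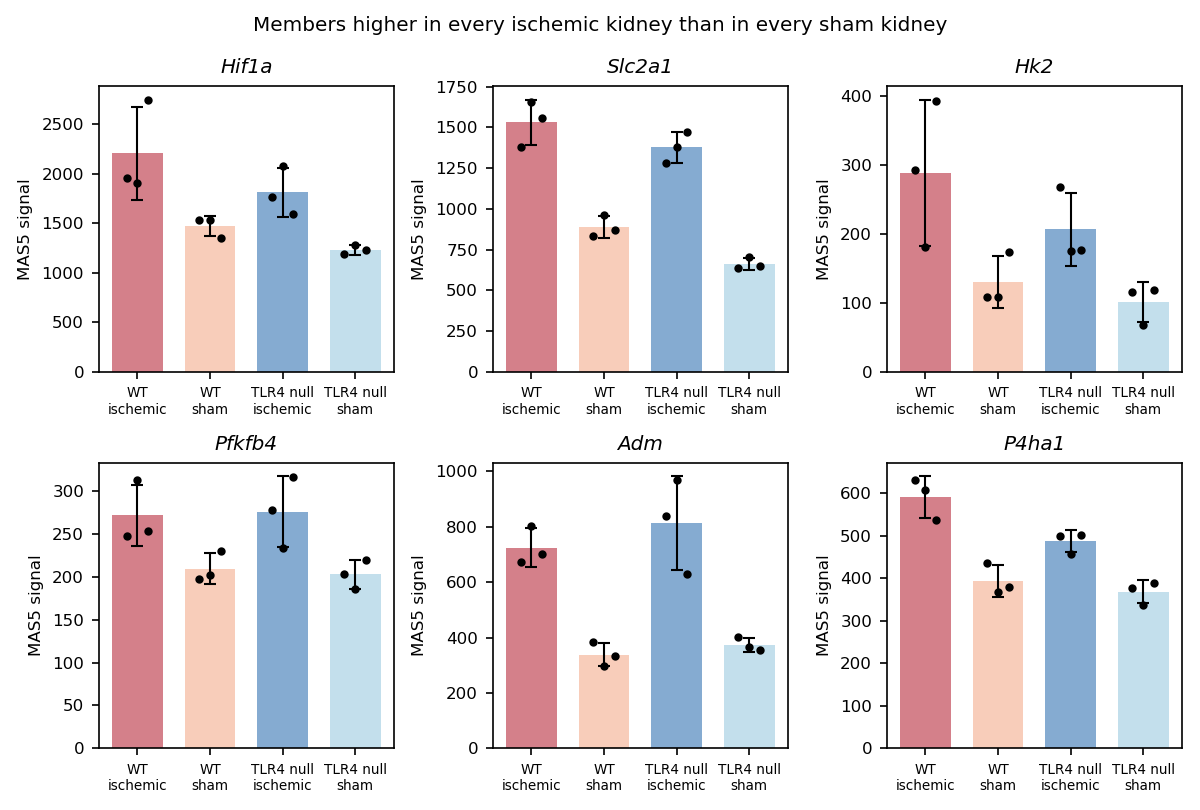
MAS5 signal (vertical axes, linear, from 0) of 6 members that were higher in every ischemic kidney than in every sham kidney. Points are single kidneys, bars are means of 3 with SD, and ischemic groups stand left of their sham groups. The Slc2a1 signals were at or above 1282 in ischemic kidneys and at or below 965.1 in sham kidneys, and the Hk2 signals vary most between mice of 1 group.

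Further down the pathway no member was called higher. Of 5 tested genes of lower glycolysis 0 were higher, 1 was lower and 4 were not called, with a median of 0.00. The background was again 13.7% of all genes higher and 19.4% lower. Tpi1 (-0.01 ± 0.05 (SE), adjusted p = 0.904) and Pgk1 (0.00 ± 0.06 (SE), adjusted p = 0.984), which carry triose phosphates on to 3-phosphoglycerate, had 95% intervals of -0.13 to 0.11 and -0.12 to 0.12. Aldoa, the aldolase, gave 0.22 ± 0.09 (SE), adjusted p = 0.0658 with all 5 probe sets uncalled at 0.03 to 0.22, and Pkm, the pyruvate kinase, 0.14 ± 0.07 (SE), adjusted p = 0.16. Aldoa was called higher under quantile normalization (0.21), with the replicate block (0.22), without WT sham replicate 3 (0.26) and without TLR4 null ischemic replicate 1 (0.27). Pgam1, phosphoglycerate mutase, was lower (log2 -0.25 ± 0.06 (SE), adjusted p = 0.00757). It averaged 3106 ± 245 in WT ischemic and 3412 ± 103 in WT sham kidneys, and 2668 ± 276 in TLR4 null ischemic and 3429.6 ± 252 in TLR4 null sham kidneys (SD, n = 3 each), and it was not called under median scaling (adjusted p = 0.163). Gapdh was read on its control probe sets alone: the one at the 3 prime end averaged 12012 ± 1283 in WT ischemic and 11260 ± 1039 in WT sham kidneys, and 11496 ± 852 in TLR4 null ischemic and 12138 ± 459 in TLR4 null sham kidneys (SD, n = 3 each, exact permutation p = 0.924, two-sided).

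Ldha, which turns pyruvate into lactate and whose window holds the most HIF cores of the 7 shown, was not called. Ldha had signals of 7029.6, 6672 and 5977 in WT ischemic kidneys, against 6233, 6384 and 6360.3 in WT sham kidneys, and of 6427, 6439 and 6427 in TLR4 null ischemic kidneys, against 6368, 7124 and 6504 in TLR4 null sham kidneys. The groups overlapped, and the log2 difference was 0.00 ± 0.05 (SE), adjusted p = 0.997, with a 95% interval of -0.11 to 0.11. Slc16a3 (MCT4), the lactate exporter of glycolytic cells, was dim and scattered, at 7.45 to 70.5 in ischemic and 6.53 to 40.6 in sham kidneys, and was not called (0.59 ± 0.32 (SE), adjusted p = 0.178).

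Pdk1, a classical HIF-1 target and the kinase that keeps pyruvate from oxidation by switching off pyruvate dehydrogenase, fell. Pdk1 had signals of 308, 296 and 387 in WT ischemic kidneys, against 619, 558 and 589 in WT sham kidneys, and of 283, 243 and 259.6 in TLR4 null ischemic kidneys, against 427, 429.8 and 503 in TLR4 null sham kidneys. Every ischemic kidney was below every sham kidney, with a fall to 0.58 of the sham level (log2 -0.79 ± 0.08 (SE), adjusted p = 4.18e-06). On the probe set used for each gene this was the largest fall among the members, but other probe sets of Ndrg1 reached -1.04. Of the 3 Pdk1 probe sets past the filter, of 4 on the array, 2 were called lower. The third gave a value of the same sign that was not called, the range being -0.79 to -0.33.

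The secreted factors differed from each other. Adm codes for adrenomedullin, a vasodilator peptide, and had the largest rise of the members. Adm had signals of 671, 804 and 701 in WT ischemic kidneys, against 383, 299 and 332 in WT sham kidneys, and of 841, 967 and 629.9 in TLR4 null ischemic kidneys, against 403, 365 and 354 in TLR4 null sham kidneys. The groups were far apart, with a 2.1-fold rise (log2 1.07 ± 0.10 (SE), adjusted p = 1.1e-06), and the second probe set gave 1.43. Vegfa, the vessel growth factor that HIF induces in many tissues, was not called (0.18 ± 0.08 (SE), adjusted p = 0.105). Vegfa had signals of 715, 578 and 713 in WT ischemic kidneys, against 576, 481 and 572 in WT sham kidneys, and of 661, 581 and 728 in TLR4 null ischemic kidneys, against 639.9, 621 and 611 in TLR4 null sham kidneys. In WT mice the ischemic kidneys lay above the sham kidneys by a narrow gap (578.3 against 576.0). In TLR4 null mice the groups overlapped, and neither genotype's change was called (adjusted p = 0.0895 and 0.738). The second Vegfa probe set gave 0.21 in WT kidneys, where its groups overlapped, and 0.40 in TLR4 null kidneys, neither called.

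Among genes of mitochondria, Bnip3, a receptor that tags mitochondria for autophagy, fell to 0.746 of its sham level (log2 -0.42 ± 0.05 (SE), adjusted p = 1.67e-05). Bnip3 had signals of 3507, 3325 and 3287 in WT ischemic kidneys, against 4110.4, 4321 and 4654 in WT sham kidneys, and of 3390.1, 3378 and 3597 in TLR4 null ischemic kidneys, against 4559.6, 4897 and 4998 in TLR4 null sham kidneys. All 6 ischemic kidneys were below all 6 sham kidneys, with little spread in either. Higd1a, a small protein of the respiratory chain that HIF-1 induces, was not called (-0.04 ± 0.07 (SE), adjusted p = 0.682).

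The growth and stress regulators fell or were not called. Of the 4, 3 were lower, against 19.4% of all genes, and their median was -0.55. Ndrg1, a stress protein used as a marker of hypoxia, fell to 0.685 of its sham level (log2 -0.55 ± 0.08 (SE), adjusted p = 0.000125). Ndrg1 had signals of 12117, 15046 and 12513 in WT ischemic kidneys, against 15561, 18186 and 17842 in WT sham kidneys, and of 9298, 13207 and 10534 in TLR4 null ischemic kidneys, against 17375, 17418 and 18764 in TLR4 null sham kidneys. The groups did not overlap, and all 5 of its probe sets fell, by 0.55 to 1.04 on the log2 scale. Mxi1, an antagonist of MYC, fell to 0.672 (log2 -0.57 ± 0.07 (SE), adjusted p = 1.21e-05), on both probe sets. Mxi1 had signals of 681, 707 and 619.9 in WT ischemic kidneys, against 907, 999.9 and 950.1 in WT sham kidneys, and of 646, 597 and 754 in TLR4 null ischemic kidneys, against 1073, 1053 and 1009.6 in TLR4 null sham kidneys. Every ischemic kidney was below every sham kidney. Ankrd37 was dim and was not called (-0.16 ± 0.26 (SE), adjusted p = 0.677).

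Ddit4 (REDD1), a brake on mTORC1, was also lower in ischemic kidneys, but this call rested on single kidneys (log2 -0.55 ± 0.18 (SE), adjusted p = 0.0244). It was lost in 6 of 12 fits that left out 1 kidney: WT ischemic replicate 2 (adjusted p = 0.0544), WT sham replicate 2 (0.0634), TLR4 null ischemic replicate 1 (0.0516) or 2 (0.0605), and TLR4 null sham replicate 2 (0.0682) or 3 (0.0537). The Ddit4 signals are given with the genotypes below.

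**Figure D3:**
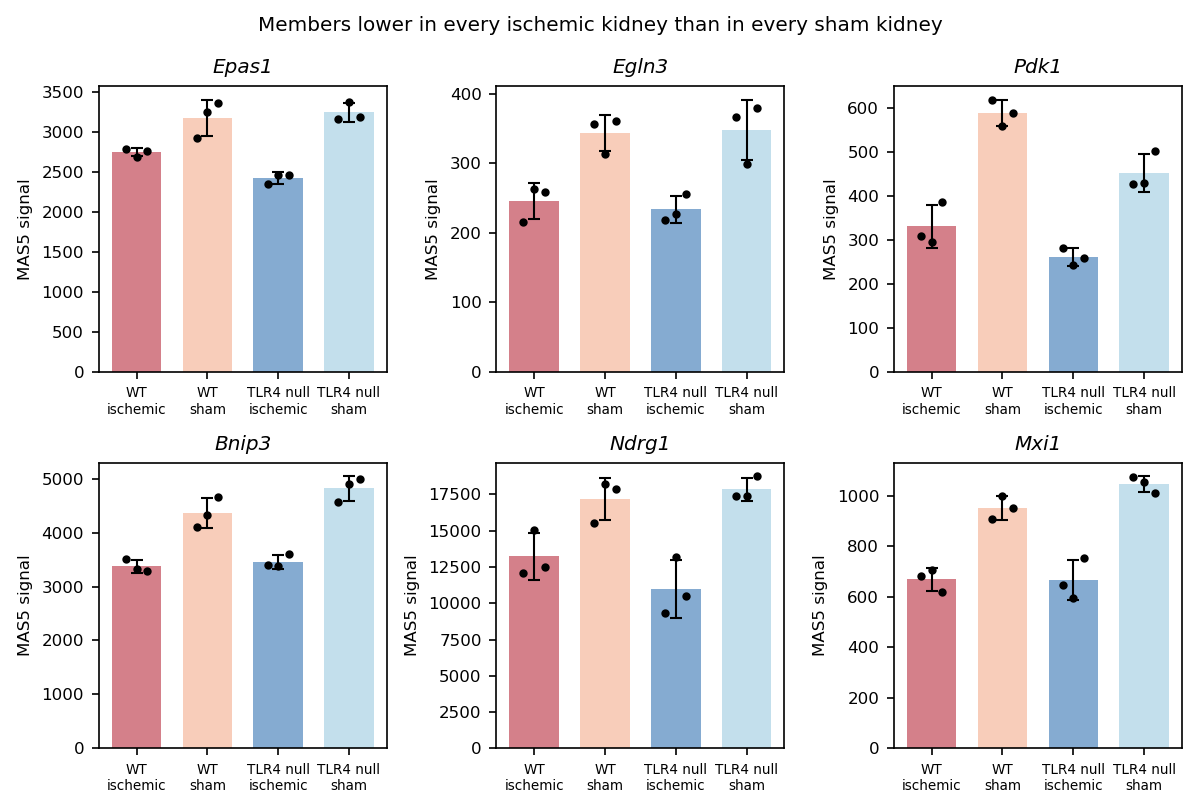
MAS5 signal (vertical axes, linear, from 0) of 6 members that were lower in every ischemic kidney than in every sham kidney. Points are single kidneys, bars are means of 3 with SD, and ischemic groups stand left of their sham groups. On the probe sets shown, Pdk1 has the largest drop relative to sham, with no ischemic signal above 387.4 and no sham signal below 427.1.

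Of the last 4 members, which act on acid balance, collagen and chromatin, 3 were higher and 1 was not called. The background was 13.7% of all genes higher. P4ha1, a catalytic subunit of the prolyl hydroxylase that stabilises collagen, rose 1.39-fold (log2 0.48 ± 0.08 (SE), adjusted p = 0.000164). P4ha1 had signals of 631, 607 and 537 in WT ischemic kidneys, against 436, 367 and 379 in WT sham kidneys, and of 500.4, 457 and 503 in TLR4 null ischemic kidneys, against 378, 338 and 389 in TLR4 null sham kidneys. Both probe sets rose, by 0.48 and 0.74, and no ischemic kidney reached down to a sham kidney. Kdm3a, a histone demethylase, rose less (log2 0.27 ± 0.08 (SE), adjusted p = 0.0129). It averaged 491 ± 55.9 in WT ischemic and 418 ± 9.12 in WT sham kidneys, and 414 ± 24.3 in TLR4 null ischemic and 330.0 ± 24.9 in TLR4 null sham kidneys (SD, n = 3 each). Car9, a carbonic anhydrase of the cell surface, was not called (-0.20 ± 0.10 (SE), adjusted p = 0.164).

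P4ha2, a second collagen prolyl hydroxylase subunit, was called at the edge of the threshold (log2 0.33 ± 0.12 (SE), adjusted p = 0.0452). It averaged 247 ± 21.8 in WT ischemic and 194 ± 42.2 in WT sham kidneys, and 226 ± 44.6 in TLR4 null ischemic and 177 ± 18.7 in TLR4 null sham kidneys (SD, n = 3 each). The call was lost in 9 of 12 fits that left out 1 kidney. These were WT ischemic replicates 1 (adjusted p = 0.102), 2 (0.0502) and 3 (0.0710), WT sham replicates 1 (0.0942) and 3 (0.115), TLR4 null ischemic replicates 1 (0.116) and 2 (0.0749), and TLR4 null sham replicates 1 (0.0713) and 2 (0.0940).

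Taken one genotype at a time, TLR4 null kidneys had 9 members higher and 8 lower, on a background of 9.86% and 11.7% of all genes, and WT kidneys had 5 higher and 7 lower, on a background of 9.17% and 10.5%. Called in both were Hif1a, Slc2a1, Hk2, Adm and P4ha1, all higher, and Egln1, Egln3, Pdk1, Bnip3, Ndrg1 and Mxi1, all lower. Pfkp, Pfkfb3, Pfkfb4, Kdm3a, Epas1 and Pgam1 were called in TLR4 null kidneys and not in WT kidneys, and Pfkl in WT kidneys and not in TLR4 null kidneys. These counts depend on single kidneys: without TLR4 null ischemic replicate 1 only 4 members were called higher in TLR4 null kidneys, without TLR4 null sham replicate 2 5 were, and without WT sham replicate 3 only 3 were called lower in WT kidneys. Under median scaling TLR4 null kidneys had 6 higher and 6 lower, and WT kidneys 5 higher and 2 lower. The calls named are those of the probe set used for each gene. A second Pfkp probe set went the other way in the limma fit of all probe sets. It was called higher in WT kidneys (0.58, adjusted p = 0.0206) and not called in TLR4 null kidneys (0.02, adjusted p = 0.944). The second Egln3 probe set was called in neither genotype.

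None of these differences between genotypes passed the test of the difference itself. The interaction (the response in TLR4 null minus that in WT) was called for 0 of 32 members and for 0 of 14322 genes by limma, with 913 genes at an unadjusted p under 0.05. Closest to the threshold among the members were Epas1 (-0.21 ± 0.10 (SE), adjusted p = 0.793), Slc2a1 (0.27 ± 0.13 (SE), adjusted p = 0.795) and Ndrg1 (-0.33 ± 0.17 (SE), adjusted p = 0.800). Other probe sets of Epas1 (0.22) and Slc2a1 (-0.09 and -0.13) had the opposite sign, and the 5 of Ndrg1 gave -0.48 to 0.03, none called. For Adm, with responses of 1.07 in TLR4 null and 1.07 in WT kidneys, the 95% interval of the difference was -0.43 to 0.43. For Pdk1, with -0.76 and -0.81 in the same order, it was -0.31 to 0.42. The response had the same sign in both genotypes for 25 of 32 members (78.1%), against 74.4% of all genes.

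**Figure D4:**
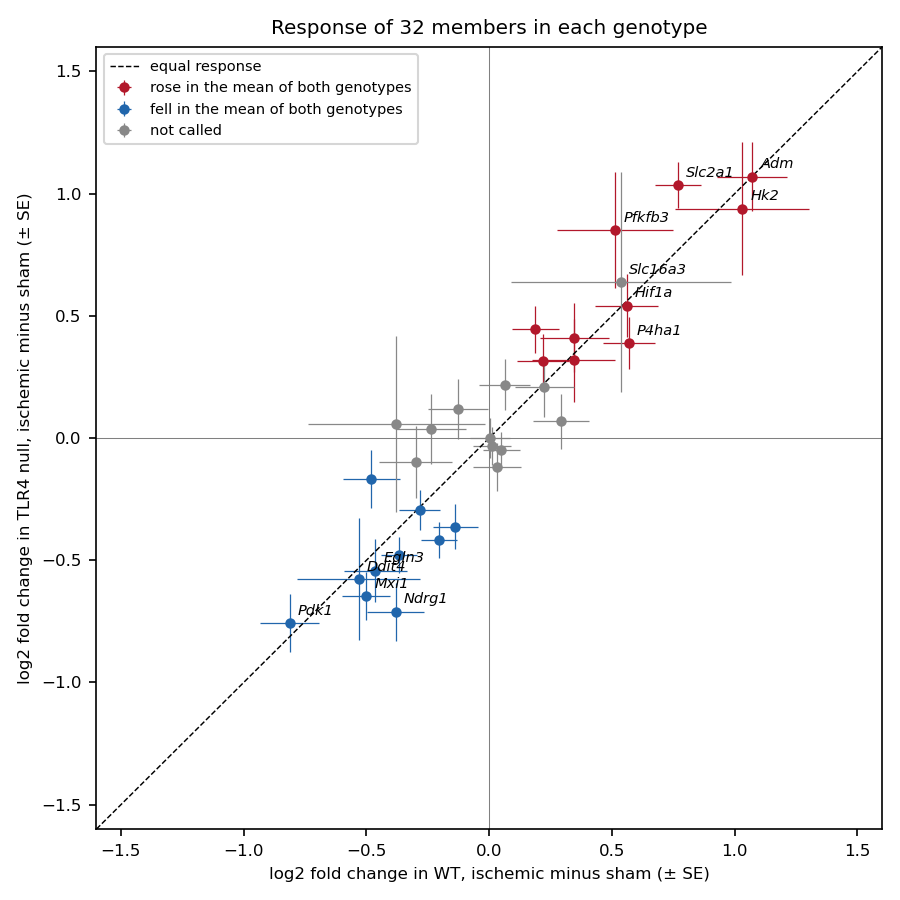
Log2 fold change of the 32 members, ischemic minus sham, in TLR4 null kidneys (vertical axis) against WT kidneys (horizontal axis), with SE bars in both directions and the line of equal response dashed. Members that rose lie in the upper right and members that fell in the lower left, near the line. On the probe sets shown, Slc2a1 (1.04 and 0.77) lies above it and Ndrg1 (-0.71 and -0.38) below it. For both the 95% interval of the difference holds 0, and other Slc2a1 probe sets gave differences of -0.09 and -0.13.

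Tlr4 itself was checked first for the genotype comparison. The Tlr4 probe set that separated the genotypes most, picked after its values were seen, read 0.901 to 3.38 in TLR4 null and 65.6 to 120 in WT kidneys, and the brightest read 6.33 to 60.4 in TLR4 null and 72.9 to 135 in WT kidneys, so both went with the labels. No member was called between TLR4 null and WT within sham kidneys or within ischemic kidneys (limma, 0 of 32 each, on backgrounds of 0.314% and 0.656% of all genes). Averaged over the 2 surgeries, a comparison added after the data were seen, 3 members were called, 1 higher and 2 lower in TLR4 null kidneys, against 2.1% of all genes (0.614% higher, 1.49% lower).

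Ddit4 had the largest of these differences, at 0.524 of the WT level (log2 -0.93 ± 0.18 (SE), adjusted p = 0.0123). Ddit4 had signals of 669, 521 and 1115 in TLR4 null ischemic kidneys, against 1380.3, 1288 and 1644 in WT ischemic kidneys, and of 751, 1489 and 1176 in TLR4 null sham kidneys, against 1791, 2501 and 1993 in WT sham kidneys. Within ischemic kidneys, and again within sham kidneys, every TLR4 null kidney was below every WT kidney, although the highest TLR4 null sham kidney was above the lowest WT ischemic kidney. The difference was called in all 12 fits that left out 1 kidney and lost with no variance trend (adjusted p = 0.0778). Within ischemic kidneys alone it was -0.95 ± 0.25 (SE, adjusted p = 0.102), and without TLR4 null ischemic replicate 3 it was called there, at -1.25 (adjusted p = 0.0119).

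Egln1 was higher in TLR4 null kidneys (log2 0.25 ± 0.06 (SE), adjusted p = 0.0375) and Slc2a1 lower (log2 -0.28 ± 0.07 (SE), adjusted p = 0.0407). Egln1 had signals of 725, 682 and 688 in TLR4 null ischemic kidneys, against 611, 597 and 556 in WT ischemic kidneys, and of 844, 901 and 836 in TLR4 null sham kidneys, against 719, 733 and 704 in WT sham kidneys. The genotypes did not overlap for Egln1 within either surgery. For Slc2a1 they did not overlap in sham kidneys (-0.41) and did in ischemic kidneys (-0.15). Both calls were lost in 10 of 12 fits that left out 1 kidney, with adjusted p from 0.0534 to 0.132 for Slc2a1 and from 0.0557 to 0.109 for Egln1. Egln1 kept its call only without TLR4 null ischemic replicate 2 or 3, and Slc2a1 only without WT ischemic replicate 1 or TLR4 null ischemic replicate 3. Other probe sets of the same genes differed less, at 0.00 for Egln1 and at -0.16 and 0.02 for Slc2a1. Pdk1 just missed the threshold on the probe set used (log2 -0.34 ± 0.08 (SE), adjusted p = 0.0508), with no overlap within either surgery. Other Pdk1 probe sets differed less, at -0.08 and -0.19, neither called. Pdk1 was called lower under quantile normalization (adjusted p = 0.0426), with a pseudocount of 60 (0.0481), with the filter at the 60th percentile (0.0384) and without WT ischemic replicate 2 (0.0451). Kdm3a was not called (-0.28 ± 0.08 (SE), adjusted p = 0.077).

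Marker sums of other cells were compared between the genotypes as well, and none passed after adjustment. The summed signal of 8 macrophage markers was 2164 to 2314 in TLR4 null ischemic and 2489 to 2720 in WT ischemic kidneys, and 2430 to 2605 in TLR4 null sham and 2912 to 3079 in WT sham kidneys (exact permutation p = 0.00866, two-sided, adjusted p = 0.121 over 14 measures). The sum of 7 fat cell markers was 2480 to 10859 in TLR4 null ischemic and 4546 to 13965 in WT ischemic kidneys, and 3243 to 6286 in TLR4 null sham and 5809 to 9948 in WT sham kidneys (exact permutation p = 0.0649). Averaged over the surgeries, 1.49% of all genes were lower in TLR4 null kidneys. Of the endothelial markers 4 of 10 were lower, and of the neutrophil markers 2 of 7, S100a8 (-0.79) and S100a9 (-0.71). The neutrophil sums given above did not overlap between TLR4 null and WT kidneys after ischemia and did overlap in sham kidneys (exact permutation p = 0.104 over both surgeries, two-sided, adjusted p = 0.364). No marker was listed at 0, and their part in the differences of Ddit4, Egln1 and Slc2a1 was not tested.

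**Figure D5:**
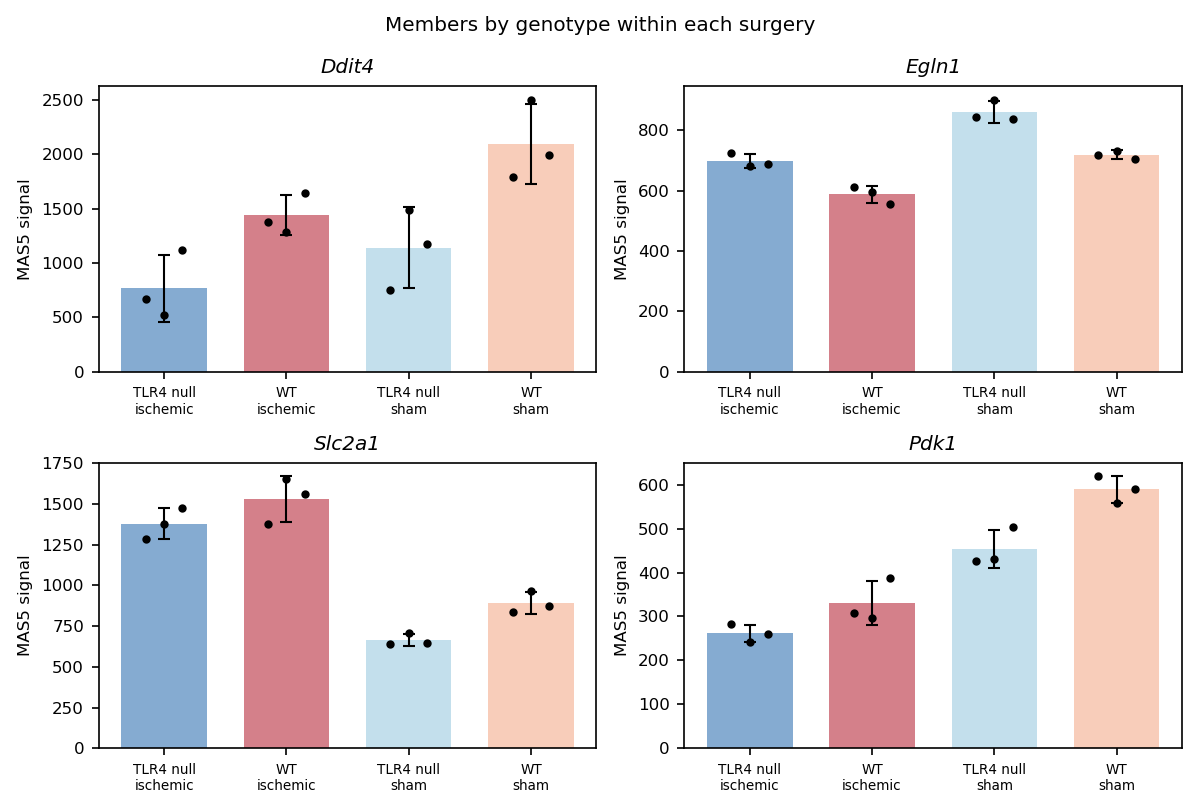
MAS5 signal (vertical axes, linear, from 0) of Ddit4, Egln1, Slc2a1 and Pdk1, with TLR4 null kidneys left of WT kidneys within each surgery. Points are single kidneys and bars are means of 3 with SD. Ddit4 lies between 520.7 and 1115 in TLR4 null ischemic kidneys and between 1288 and 1644 in WT ischemic kidneys, and Egln1 is above WT in every TLR4 null kidney of the same surgery.

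Other genes of the pathway were taken from lists that do not contain the members. Of 15 other glycolysis genes 1 rose, 3 fell and 11 were not called, with a median of -0.20, on the background of 33.1% of all genes called in either direction. Eno2, a second enolase, rose (log2 1.11 ± 0.30 (SE), adjusted p = 0.00907), although it was dim in every group. Pfkm, the third phosphofructokinase isoform, fell (log2 -0.45 ± 0.11 (SE), adjusted p = 0.00437), as did Pklr, the liver-type pyruvate kinase (log2 -0.39 ± 0.13 (SE), adjusted p = 0.0362), and Slc2a4, the insulin-responsive glucose transporter (log2 -0.29 ± 0.11 (SE), adjusted p = 0.0488).

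Against 33.1% of all genes called in either direction, 2 of 14 other HIF regulators rose, 1 fell and 11 were not called. Their median was 0.05. The ubiquitin ligases Siah2 (log2 1.02 ± 0.22 (SE), adjusted p = 0.0021) and Siah1a (log2 0.46 ± 0.17 (SE), adjusted p = 0.0492), which send prolyl hydroxylases to the proteasome, were those called higher on average. Siah2 had signals of 271, 243 and 179 in WT ischemic kidneys, against 109, 103 and 155 in WT sham kidneys, and of 234, 201 and 270.3 in TLR4 null ischemic kidneys, against 40.2, 145 and 127 in TLR4 null sham kidneys. The Siah2 signals did not overlap between ischemic and sham kidneys. Siah1a had signals of 581, 575 and 311 in WT ischemic kidneys, against 238, 212 and 235 in WT sham kidneys, and of 188, 278 and 266 in TLR4 null ischemic kidneys, against 175, 278 and 334 in TLR4 null sham kidneys. For Siah1a the ischemic kidneys lay above the sham kidneys in WT mice (1.00 ± 0.24 (SE), adjusted p = 0.00832) and overlapped them in TLR4 null mice (-0.07 ± 0.24 (SE), adjusted p = 0.877), and the test of that difference was not called (-1.07 ± 0.34 (SE), adjusted p = 0.637). Hif3a, whose protein can counter the other alpha subunits, fell (log2 -0.48 ± 0.16 (SE), adjusted p = 0.0282). Vhl, which binds the marked alpha subunit, was not called (0.01 ± 0.10 (SE), adjusted p = 0.929).

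Against 13.7% of all genes higher and 19.4% lower, 11 of 37 other HIF targets rose, 15 fell and 11 were not called. Their median was -0.18. The smallest p belonged to Jmjd6, a 2-oxoglutarate oxygenase that rose 2.34-fold (log2 1.23 ± 0.08 (SE), adjusted p = 1.61e-08), and to Slc6a6, the taurine transporter, which fell to 0.413 of its sham level (log2 -1.27 ± 0.10 (SE), adjusted p = 1.34e-07). Angptl4, an inhibitor of lipoprotein lipase, fell (log2 -0.74 ± 0.06 (SE), adjusted p = 3.7e-07), and Wsb1, a part of a ubiquitin ligase, rose (log2 1.08 ± 0.11 (SE), adjusted p = 3.37e-06). Jmjd6 had signals of 641, 567 and 640.4 in WT ischemic kidneys, against 216, 247 and 240.4 in WT sham kidneys, and of 479, 485 and 554 in TLR4 null ischemic kidneys, against 241, 228 and 207 in TLR4 null sham kidneys. Neither surgery group came near the other for Jmjd6. Angptl4 was also lower in TLR4 null than in WT kidneys over both surgeries (-0.40 ± 0.06 (SE), adjusted p = 0.00456), by -0.43 in ischemic kidneys and -0.36 in sham kidneys.

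The other pyruvate dehydrogenase kinases fell as Pdk1 did. Of 12 genes of the pyruvate dehydrogenase complex, its kinases and phosphatases, and pyruvate import and carboxylation, 0 rose, 9 fell and 3 were not called. Their median was -0.32. Of all genes 13.7% rose and 19.4% fell. Pdk2, the kinase isoform found in most tissues, fell to 0.51 of its sham level (log2 -0.97 ± 0.09 (SE), adjusted p = 6.44e-07). Pdk2 had signals of 726, 899 and 623 in WT ischemic kidneys, against 1604, 1692 and 1503 in WT sham kidneys, and of 875, 701 and 772 in TLR4 null ischemic kidneys, against 1294, 1526 and 1445 in TLR4 null sham kidneys. Pdk4, the isoform that fasting and fatty acids induce, fell as well (log2 -0.88 ± 0.09 (SE), adjusted p = 2.03e-06), and so did Pdp2, a phosphatase that acts against the kinases (log2 -0.73 ± 0.10 (SE), adjusted p = 3.02e-05), and Pcx, pyruvate carboxylase, the first enzyme of glucose synthesis from pyruvate (log2 -0.51 ± 0.07 (SE), adjusted p = 4.03e-05). All 4 were lower in every ischemic kidney than in every sham kidney. The genes that fell include both inhibitors and activators of pyruvate dehydrogenase.

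Each array had been scaled to the same trimmed mean, signals correlated between arrays of 1 group at r = 0.963 to 0.979, and the proximal tubule markers that define kidney cortex were bright in every kidney, with a sum of 77699 to 97576. Of those 10 markers 3 fell in ischemic kidneys, led by Slc5a12 (-0.63), against 19.4% of all genes lower. Of 8 markers of the distal nephron 5 fell (summed signal, exact permutation p = 0.0217, two-sided, adjusted p = 0.101 over 14 measures). Of 8 macrophage markers 4 fell and 1 rose, and their summed signal, given above, was lower in ischemic than in sham kidneys without overlap within either genotype. Over all 12 kidneys, with genotype not held fixed, the exact permutation p was 0.0455 (two-sided, adjusted p = 0.141). The median signal of an array was 61.2 to 77.4, and scaling to it ended the calls named above. The actin ratio of 3 prime over 5 prime signal, a measure of RNA quality, was 1.88 to 1.99 in WT ischemic and 1.68 to 1.82 in WT sham kidneys, and 1.73 to 2.01 in TLR4 null ischemic and 1.75 to 1.85 in TLR4 null sham kidneys (exact permutation p = 0.0519, two-sided, adjusted p = 0.141). The part of these measures in the members' changes was not tested.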

How the data were processed

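Kidney RNA of 12 mice (4 groups of 3) was measured on 1 array each. The authors deposited linear signal intensity from MAS5 (named in the submitters' processing notes). Its version and scaling target, and any array batches, are not stated in the sources used here. Each array had a trimmed mean of 248.6 to 248.8 over the middle 96% of its probe sets, and that scaling was kept. The number of arrays and not a read depth limits the precision.

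From these intensities log2(signal + 15) was taken, 15 being the rounded 20th percentile of all signals. Of 45101 probe sets (64 controls), 30326 passed the filter, which asked for 3 or more arrays with a signal above the array's own 40th percentile. By the platform annotation 34945 had a single gene name, 932 had more than 1 and 9160 had no name, and a gene was read on its probe set with the highest mean. The 14322 genes were fitted with limma 3.58.1 in R 4.3.3 (4 group means, 8 residual degrees of freedom, eBayes with a trend, Benjamini-Hochberg adjustment, threshold 0.05) for 6 comparisons. The genotype average was a seventh, added after the data were seen. Single values were compared with exact permutation tests in Python 3.11.15, which regrouped all 12 kidneys and did not hold the other factor fixed. The fit was tested on simulated data.

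The members, the other gene lists and the marker lists were chosen with earlier results of these data known. Every member with a call was named with its values, and of each other list up to 4 called genes with the smallest p, plus Gapdh, Vhl, Egln2, Hif3a and Pdk4. Epo, which that rule also names, is not analysed here. Markers, Tlr4 probe sets and Ldha were named outside it. Promoter windows came from RefSeq (GRCm38.p6), matched by symbol for 32 of 35 members. Alternatives were other array scalings, pseudocounts, filters, probe set rules, no variance trend, a replicate block and leaving out each array.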

Additional observations from a re-analysis of the deposited data

How the results depend on the processing

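Of 23 member calls (20 for ischemic against sham averaged over the genotypes, 3 for TLR4 null against WT averaged over the surgeries), 14 held under all 10 alternative settings and all 12 fits that left out 1 kidney, and no direction reversed under any of these. Scaling each array to its median had the widest effect. It left 6 members lower in the averaged comparison, where Egln1, Pfkl, Pgam1 and Ddit4 lost their calls, and 2 lower in WT kidneys (Pdk1 and Mxi1). P4ha2 was lost with no filter (adjusted p = 0.0686), no variance trend (0.0600) and the replicate block (0.0553). Ddit4 was lost with no trend (0.0660). With probe sets of a gene averaged, Egln1 (0.0554) and Pfkfb3 (0.124) were lost. The cause was not tested.

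In the genotype average, 0 members were higher in TLR4 null kidneys under median scaling, averaged probe sets, no variance trend and the replicate block. There 1 was lower under median scaling, 1 with averaged probe sets and 0 with no trend. Leaving out 1 kidney gave 9 to 10 higher and 9 to 10 lower in the averaged ischemic comparison, 4 to 9 higher and 7 to 9 lower in TLR4 null kidneys, and 4 to 6 higher and 3 to 7 lower in WT kidneys. It gave 0 to 1 higher and 1 to 2 lower in the genotype average, 0 to 1 lower between genotypes in ischemic kidneys, and 0 members in the interaction and between genotypes in sham kidneys.

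Counts over all genes moved by more than 1.5 times in places. Median scaling gave 1788 instead of 2814 in WT, 2014 instead of 3088 in TLR4 null, 22 instead of 45 between genotypes in sham kidneys and 167 instead of 301 in the genotype average. With no trend the genotype counts were 4 in sham kidneys, 20 in ischemic kidneys and 107 in the average, and in ischemic kidneys, with 94 in the fit reported above, no filter gave 47 and the replicate block 61. Leaving out 1 kidney gave 2 (without WT sham replicate 1) to 61 in sham kidneys, 138 to 370 in the average, and 10 (without WT ischemic replicate 3) to 244 (without TLR4 null ischemic replicate 3) in ischemic kidneys. The interaction had 15 genes, none of them members, without TLR4 null ischemic replicate 3.

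The replicate numbers did not pair the samples: deviations from the group means of same-numbered kidneys correlated at -0.06 to 0.10 (1 of 18 pairs over 0.1) and those of other pairs at -0.13 to 0.14. With the replicate block the averaged comparison had 10 higher members, with Aldoa called in place of P4ha2, and 10 lower, WT 5 and 7, and TLR4 null 7 and 8. With 3 kidneys a group, dim genes such as Slc16a3 (SE 0.32) and Ankrd37 (SE 0.26) had the widest errors of the members in the averaged comparison.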
